A study of Rattus norvegicus with 6 samples.

Results

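Mural cells wrap the small vessels of the brain, and a rule on their marker transcripts took 215 of the 61609 nuclei (0.349%) of rat nucleus accumbens that passed the filters, out of 64260 barcodes. The rule asked for 3 or more UMIs (unique molecular identifiers, each standing for 1 captured RNA molecule) summed over Pdgfrb, Rgs5, Notch3, Abcc9 and Atp13a5. It also asked for at least 500 genes, at most 5% mitochondrial UMIs, at most 1 UMI each of Flt1, of Gad1 and Gad2 together and of Aqp4, and 0 of Mog and Opalin, Csf1r and Pdgfra. These counts chose the nuclei, so the levels of the 5 markers and of the limiting genes are no result. No cell barcode was shared between members of different libraries.

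The nuclei came from bilateral punches of the nucleus accumbens of adult male and female Sprague-Dawley rats aged 90 to 120 days, measured with droplet-based single-nucleus RNA sequencing of 3′ ends. Every rat had self-administered heroin, for 7 days at 1 response per infusion, 4 days at 3 responses, a progressive ratio test on day 12 and 2 last sessions at 3 responses on days 13 and 14. After the last session each rat received either saline or naloxone, which blocks opioid receptors, and was killed 1 h later. Tissue of 12 rats was combined into 6 libraries, saline replicates 1 to 3 and naloxone replicates 4 to 6, each with both sexes. The dose and route of naloxone and the animals behind each library are not given in the sources used here, and rats without heroin were not analysed here. The comparison asks which transcripts differ 1 h after naloxone at the same heroin history.

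Brain mural cells are pericytes and vascular smooth muscle cells. Pericytes sit on capillaries inside the basement membrane that they share with endothelial cells, and vascular smooth muscle cells ring arterioles and hold the contractile proteins of arteries. Mural cells are recruited to vessels by endothelial PDGF-B acting on their receptor PDGFR-β, and Notch3 signalling keeps their identity. They set vessel tone through calcium entry, potassium channels and the nitric oxide and cyclic GMP pathway.

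The libraries held between 55739350 and 76272798 UMIs. The rule took 27, 50 and 40 nuclei in saline replicates 1 to 3 and 42, 29 and 27 in naloxone replicates 4 to 6, with a median of 1541 UMIs per nucleus. A class of 212 endothelial nuclei served as the closest vascular comparison, and 696 astrocyte nuclei as a second one. The endothelial nuclei numbered 15, 69 and 25 in saline replicates 1 to 3 and 44, 23 and 36 in naloxone replicates 4 to 6. CPM below means UMIs per 1000000 UMIs of that class in a library, and a mean ± SD is over the 6 libraries. Both comparison classes were also chosen by marker counts, each with at most 1 UMI of the 5 mural markers, so levels set between classes are described without a test. Each library pools rats, and p-values measure the spread between these libraries.

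The members were not of 1 kind when checked against genes outside the rule. Of the 215, 125 held 5 or more marker UMIs and 90 held 3 or 4. Ebf1, a transcription factor of brain mural and endothelial cells, had a UMI in 117 of the 125 (93.6%, exact 95% interval 87.8% to 97.2%) and in 12 of the 90 (13.3%, 7.08% to 22.1%). Slc1a2, the main glutamate transporter of astrocytes, had 5 or more UMIs in 5 of the 125 and in 75 of the 90. The low-marker nuclei were the deeper ones, with a median of 3139 UMIs against 1103. After each nucleus was thinned to 500 UMIs, Ebf1 remained in 87.2% of the 125 and in 10.0% of the 90, against 0.225% of 10240 oligodendrocyte nuclei, which should lack it. Before thinning the oligodendrocyte share was 0.742%, at a median depth of 1800 UMIs.

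**Figure D1:**
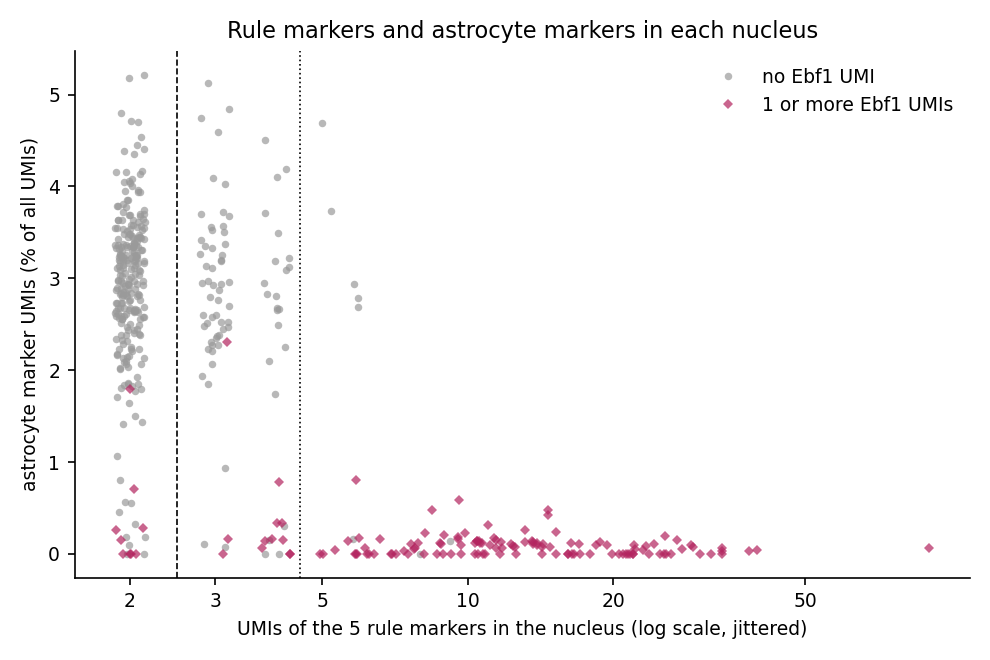
Each point is a nucleus; the horizontal axis is its UMIs of the 5 rule markers (log scale), the vertical axis its UMIs of 10 astrocyte marker genes as a percent of all its UMIs, and colour marks an Ebf1 UMI. The dashed line is the rule's threshold of 3 and the dotted line is 5; nuclei with 5 or more marker UMIs mostly lie near 0% with Ebf1, and those with 2, 3 or 4 mostly above 1% without it.

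The share of nuclei with Ebf1 climbed along the marker sum. Ebf1 was seen in 5.17% of the 58 nuclei with 3 marker UMIs, 28.1% of the 32 with 4, 81.5% of the 27 with 6 to 8, and in each of the 29 with 13 to 20 and the 31 with more. Just outside the rule, 260 nuclei with 2 marker UMIs had Ebf1 in 3.46% and 5 or more Slc1a2 UMIs in 231. Pdgfrb was the only one of the 5 markers seen in 48 of the 90 low-marker nuclei and in 4 of the 125. The 125, called high-marker nuclei here, carry mural markers outside the rule. They numbered 12, 31 and 22 in saline replicates 1 to 3 and 30, 17 and 13 in naloxone replicates 4 to 6. In saline replicate 1 they held 17128 UMIs, and the endothelial nuclei 18136. There 1 UMI was above 50 CPM, so a level near that can rest on a few UMIs. The data go against the label for most of the 90 low-marker nuclei, which carry astrocyte markers and hold 62.9% of all UMIs of the members. Presenting the 125 beside the 215 was decided after these counts were seen.

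Marker lists separated both sets of nuclei. The 18 measured pericyte markers summed to 7308 ± 1547 CPM in high-marker nuclei, 276 ± 171 in low-marker nuclei and 106 ± 21.3 in astrocyte nuclei. Endothelial nuclei reached 2961 ± 659 CPM on that list, of which Ebf1 made up 2877 ± 626. The 10 astrocyte markers summed to 4170 ± 3849 CPM in high-marker nuclei, 26647 ± 6291 in low-marker nuclei and 27796 ± 2183 in astrocyte nuclei. Aqp4, which the rule limits and which chose the astrocyte class, made up 16.1, 115 and 816 CPM of these sums. In high-marker nuclei the astrocyte sum ran from 467 CPM in saline replicate 1 to 10825 in naloxone replicate 6. The 15 measured endothelial markers summed to 264 ± 425 CPM in high-marker nuclei against 12699 ± 2969 in endothelial nuclei, with Cldn5 and Tie1 at 0. Flt1, which the rule limits and which helped to choose the endothelial class, made up 33.4 and 3792 CPM of these sums. The highest of the 6 high-marker sums of the endothelial list was 1109 CPM, in saline replicate 1. There, 15 UMIs of the list were in 1 nucleus that held 916 UMIs in all. Folh1 (glutamate carboxypeptidase II), Slc6a11 (a GABA transporter of astrocytes) and Prdm16 were among the genes furthest above high-marker nuclei in the low-marker ones. Folh1 was at 632 ± 186 CPM in low-marker, 40.9 ± 63.8 in high-marker and 655 ± 79.2 in astrocyte nuclei. Of 14 vascular fibroblast markers, 9 had a UMI in high-marker nuclei. Dcn, Lum, Col1a1, Slc47a1 and Bnc2 had 0, where 3 UMIs would be 16.2 CPM. The list summed to 696 ± 185 CPM in high-marker, 24.2 ± 30.2 in endothelial and 86.8 ± 19.6 in astrocyte nuclei. Of its 3 genes at 50 CPM or more in high-marker or endothelial nuclei, 2 were above endothelial nuclei in all 6 libraries. They were Slc6a13 and Ranbp3l, where 8.46% of all genes were higher.

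**Figure D2:**
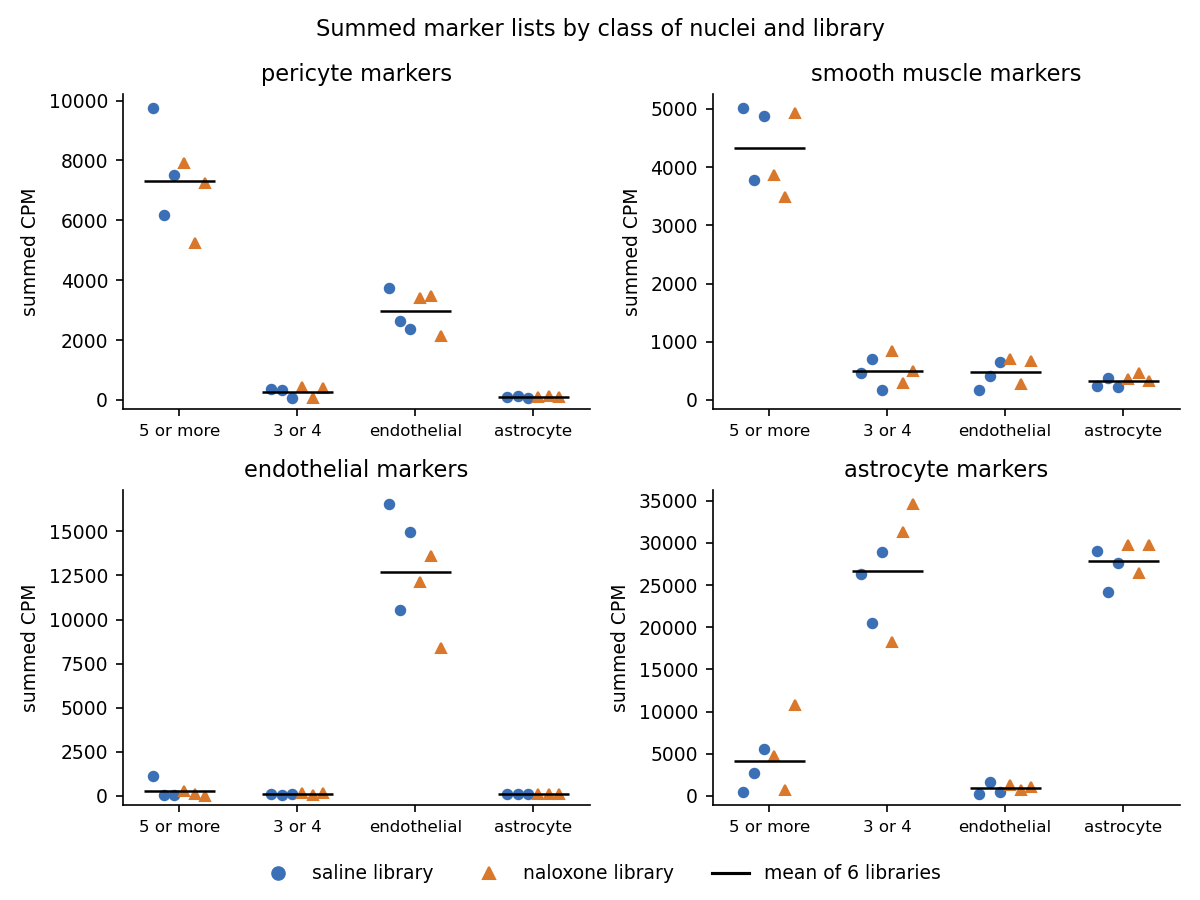
Summed CPM of 4 marker lists (vertical axes) in high-marker nuclei (5 or more), low-marker nuclei (3 or 4), endothelial and astrocyte nuclei; each point is a library and the line the mean of 6. The pericyte list is highest in the high-marker nuclei, and the low-marker nuclei overlap the astrocyte nuclei on the astrocyte list.

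Defining genes of arterial smooth muscle were nearly undetected in high-marker nuclei. Acta2 and Tagln, the actin and the actin-binding protein of arterial muscle, had 1 UMI each in the 125 nuclei, and Cnn1, Actg2, Casq2 and Kcnmb1 had 0. Myh11, smooth muscle myosin, had 17 UMIs, of which 10 were in 1 nucleus of saline replicate 2. Nuclei with 2 or more UMIs over Acta2, Tagln and Myh11 numbered 4 of 215 and 2 of 125, too few to be described as a group. The share of such nuclei among members was 0%, 2.0% and 0% in saline replicates 1 to 3 and 4.76%, 0% and 3.70% in naloxone replicates 4 to 6, with overlap (exact permutation test, p = 0.4, adjusted p = 0.8). In high-marker nuclei the 19 measured smooth muscle markers summed to 4326 ± 686 CPM. Endothelial nuclei reached 480 ± 230 and astrocyte nuclei 330 ± 87.9. Of the 6 at 50 CPM or more in high-marker or endothelial nuclei, 4 were above endothelial nuclei in all 6 libraries and 0 below. Over all genes 8.46% were above and 9.82% below. The 4 were Cald1 (caldesmon) at 2513 ± 659 CPM, Mylk (myosin light chain kinase) at 387 ± 159, Map3k7cl and Slit3.

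Pericyte markers outside the rule were seen in most libraries of the high-marker nuclei. Kcnj8, the pore of the ATP-sensitive potassium channel whose regulatory subunit is the rule gene Abcc9 and whose gene neighbours Abcc9 in RefSeq, was at 175, 198 and 169 CPM in saline replicates 1 to 3. In naloxone replicates 4 to 6 it was at 221, 348 and 41.0 CPM. The lowest and the highest value both came from naloxone libraries, and 10 of its 37 UMIs came from 1 nucleus of naloxone replicate 5. Kcnj8 had 0 UMIs in the 90 low-marker nuclei and in astrocyte nuclei and 1 in endothelial nuclei. Vtn (vitronectin) averaged 222 ± 139 CPM, Cspg4 (the proteoglycan NG2) 275 ± 105 and P2ry14, a receptor for UDP-sugars, 327 ± 128. Slc30a10, a manganese exporter, varied least of these, from 445 to 553 CPM. Against endothelial nuclei, 8 of the 11 pericyte markers at 50 CPM or more in either class were higher in all 6 libraries, where 8.46% of 5460 genes at that level were higher and 9.82% lower.

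The genes that set the high-marker nuclei furthest above the 61394 nuclei outside the rule were ranked among genes with 100 CPM or more in every library, as a description without a test. Carmn led, at 757 ± 265 CPM against 0.367 ± 0.223 in all other nuclei. Carmn is a long noncoding RNA of smooth muscle and pericytes whose RefSeq gene contains Mir143 and Mir145, which were not measured here. Its libraries lay at 993, 618 and 705 CPM for saline replicates 1 to 3 and 967, 317 and 943 for naloxone replicates 4 to 6, so the groups overlapped. A Carmn UMI was found in 56.0% of the 125 nuclei (46.8% to 64.9%) and in 1 of 10240 oligodendrocyte nuclei.

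Several of the next genes encode signalling and matrix proteins. Rem1, a small GTPase that restrains calcium channels, reached 267 ± 106 CPM against 0.169 elsewhere, and Cysltr2, a leukotriene receptor, 336 ± 166 against 0.346. Enpep, the aminopeptidase that acts on angiotensin II, reached 177 ± 36.1 CPM and the connexin gene Gjc1 588 ± 240. Egflam, which encodes the matrix protein pikachurin, reached 1266 ± 226 CPM and was also present in endothelial nuclei at 325 ± 125. A transporter gene, Slc6a20a, reached 1829 ± 516 CPM for 1 of its 2 identifiers, and how reads were shared between the 2 was not checked. The noncoding gene LOC102548095 stood at 1224 ± 309 CPM, with 0 UMIs in endothelial and astrocyte nuclei.

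Ebf1 itself averaged 4777 ± 1538 CPM in high-marker nuclei, 2877 ± 626 in endothelial and 5.02 ± 4.25 in astrocyte nuclei. The 250 bases before the RefSeq start of the leading genes were searched, on both strands, for 8 short motifs, chosen after the genes were known. Of 30 leading genes, 25 had a promoter in the table (build GRCr8). CCCNNGGG, the core bound by EBF factors (its own reverse complement), was in 5 of the 25 and in 11.0% of all 27457 promoters. TGGGAA or its reverse complement TTCCCA, the core bound by the Notch effector RBPJ, was in 6 of the 25 and in 21.6% of all. The other motifs were the EBF core with its flanking T and A, GTGGGAA, the CArG box, the NFI palindrome, TGTTTAC and CACGTG. Both longer forms contain the shorter core. Of the 25, they were in 1, 2, 1, 0, 1 and 1. Over all 27457 promoters they were in 202, 1432, 412, 11, 892 and 1591. Irag1, Pla1a and Slc22a8 are the highest-ranked of the 5 genes with the EBF core and are shown with the matches in capitals. A match is a run of letters and not a measured site, and the counts are a description.
Irag1: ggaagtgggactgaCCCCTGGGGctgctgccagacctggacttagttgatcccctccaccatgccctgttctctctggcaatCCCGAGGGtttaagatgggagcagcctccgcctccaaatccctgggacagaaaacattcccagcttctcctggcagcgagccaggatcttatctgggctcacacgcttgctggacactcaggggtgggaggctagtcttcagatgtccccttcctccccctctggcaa
Pla1a: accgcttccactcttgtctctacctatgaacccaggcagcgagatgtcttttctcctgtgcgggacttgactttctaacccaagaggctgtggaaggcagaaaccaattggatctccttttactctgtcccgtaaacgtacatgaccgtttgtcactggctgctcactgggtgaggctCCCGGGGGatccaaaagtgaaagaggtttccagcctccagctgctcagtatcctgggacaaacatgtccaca
Slc22a8: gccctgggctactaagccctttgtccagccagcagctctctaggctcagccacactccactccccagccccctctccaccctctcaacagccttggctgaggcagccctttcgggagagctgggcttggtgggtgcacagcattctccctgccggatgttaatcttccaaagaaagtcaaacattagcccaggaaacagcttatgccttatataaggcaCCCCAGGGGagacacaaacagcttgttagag
They read 5′ to 3′ on the gene's strand, at chr1:174528852-174529101 (minus strand), chr11:75825376-75825625 (plus) and chr1:214927034-214927283 (plus) of GRCr8. The Irag1 window holds 3 matches, of which 2 overlap, the Slc22a8 window 2 that overlap, and the Pla1a window 1. Of these genes, Pla1a, a phospholipase, stood at 259 ± 56.0 CPM. Slc22a8, an organic anion transporter, was at 226 ± 75.9 CPM in high-marker and 212 ± 75.6 in endothelial nuclei, which overlap.

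The list of nitric oxide and cyclic nucleotide signalling holds genes of cyclic GMP and of cyclic AMP. Of its 19 genes at 50 CPM or more in either class, 12 were higher than in endothelial nuclei in all 6 libraries and 1 lower, beside 8.46% and 9.82% of all genes. The 12 include Adcy6, Pde4d, Pde7b and Pde8b, which act on cyclic AMP, and Pde10a, which is also a spiny neuron marker. Prkg1, the cyclic GMP-dependent kinase that relaxes vessels, was at 9341, 7320 and 9671 CPM in saline replicates 1 to 3 and 9642, 6304 and 6602 in naloxone replicates 4 to 6. Endothelial nuclei had 213 ± 240 CPM of Prkg1, and no library of theirs came near the high-marker range. Irag1, its substrate at the calcium store, was at 570 ± 105 CPM, with 0 UMIs in endothelial and astrocyte nuclei. The subunits of soluble guanylate cyclase, the receptor for nitric oxide, were at 539 ± 176 CPM for Gucy1a1, 2658 ± 613 for Gucy1a2 and 267 ± 120 for Gucy1b1. Among phosphodiesterases, Pde3a (1144 ± 169 CPM against 20.9 ± 41.4) and Pde5a (481 ± 117 against 106 ± 62.8) were above endothelial nuclei, and Pde8a (147 ± 55.6 against 388 ± 187) was below in each library. The natriuretic peptide receptors Npr1, Npr2 and Npr3 had 0 UMIs in the 125 nuclei. Comparisons of CPM between different genes are not made, since nuclear UMIs also follow gene length.

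Of 23 contraction and calcium genes, 7 were above endothelial nuclei in all 6 libraries and 0 below, beside 8.46% and 9.82% of all genes. They include Cald1, Mylk and the subunits of the L-type calcium channel Cacna1c, Cacnb2 and Cacna2d1. Cacna1c, its pore, averaged 2756 ± 479 CPM against 196 ± 185 in endothelial nuclei, and its auxiliary subunit Cacnb2 1818 ± 252 against 810 ± 327. The kinase gene Rock1 overlapped, at 586 ± 133 CPM in high-marker and 559 ± 95.7 in endothelial nuclei.

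Of 13 ion channel genes, 7 were higher than in endothelial nuclei in all 6 libraries, where 8.46% of all genes were. The 7 count Abcc9, whose level chose the members, and include Kcnj8, Ano1, Pkd2, Trpc1 and Trpc4. Piezo1, a mechanosensitive channel, was lower, as were 9.82% of all genes. Ano1, the calcium-activated chloride channel that depolarises contractile cells, averaged 564 ± 238 CPM against 9.19 ± 22.5, and Trpc4, a cation channel, 398 ± 196 with 11 UMIs in endothelial nuclei. Trpm3 and Kcnma1 were instead lower than in astrocyte nuclei in all 6 libraries, at 561 ± 376 against 4842 ± 1069 CPM and at 409 ± 218 against 1384 ± 145. In the low-marker nuclei Trpm3 stood at 4218 ± 1054 CPM, overlapping the astrocyte nuclei.

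**Figure D3:**
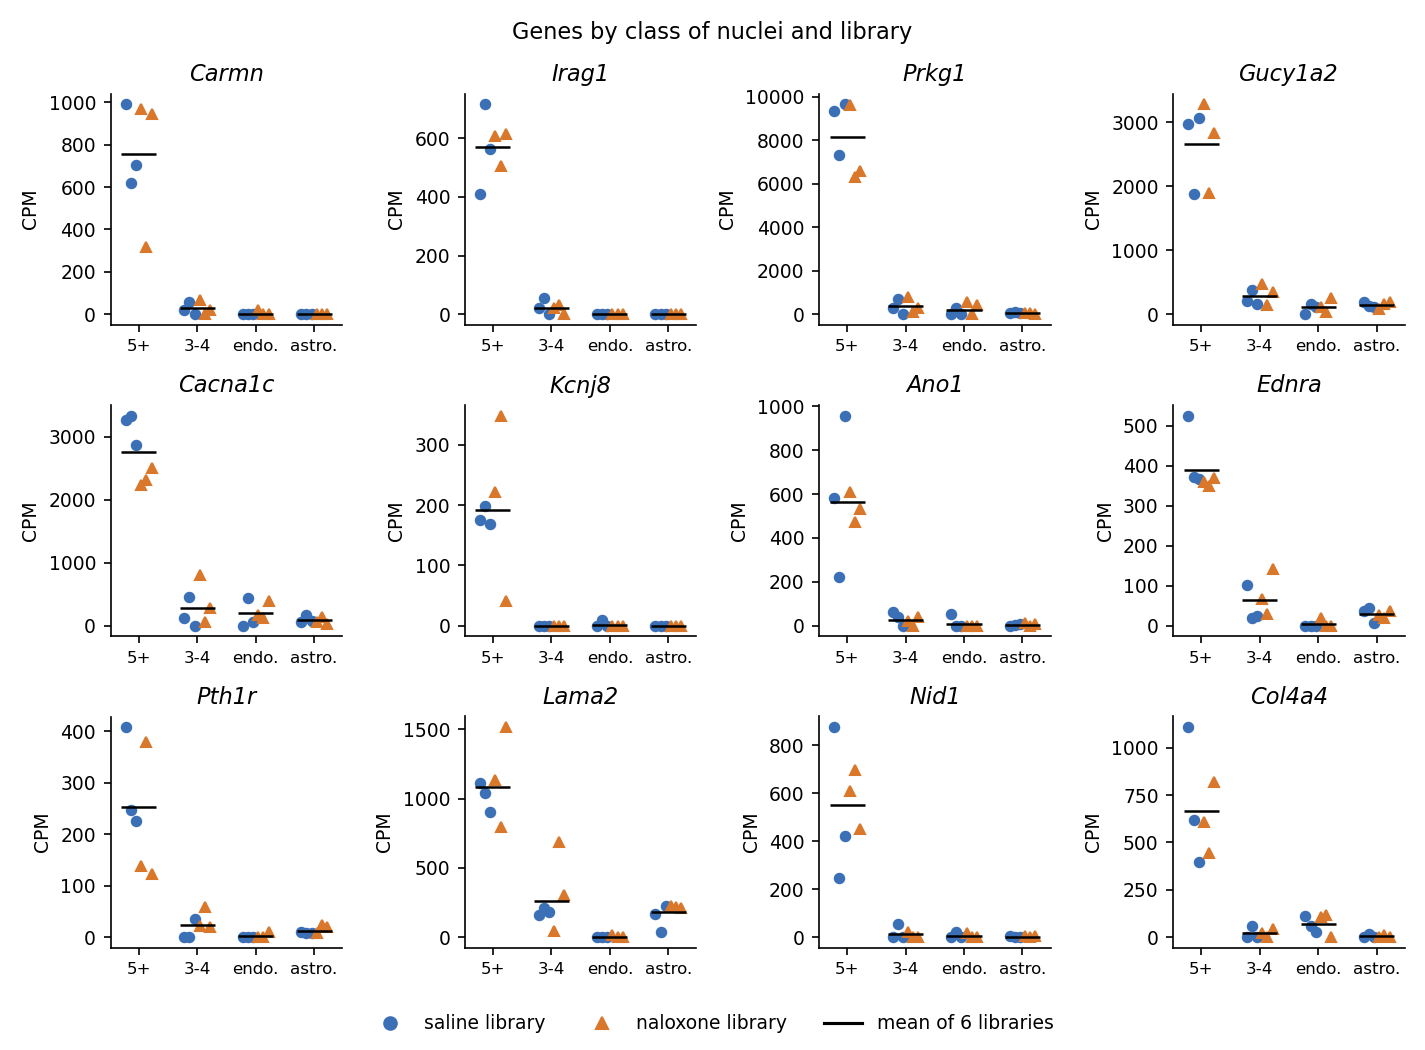
CPM (vertical axes) of 12 genes in high-marker (5+), low-marker (3-4), endothelial and astrocyte nuclei; each point is a library and the line the mean of 6. For each gene the high-marker nuclei have the highest mean, and saline and naloxone libraries are mixed except for Cacna1c, where the 3 naloxone libraries lie below the 3 saline ones.

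Of 42 vasoactive receptor genes on the list, 23 had a UMI in high-marker nuclei and 8 had 10 or more. Ednra, the receptor through which endothelin contracts mural cells, was even across libraries, at 525, 371 and 367 CPM in saline replicates 1 to 3 and 359, 348 and 369 in naloxone replicates 4 to 6. Endothelial nuclei held 1 Ednra UMI. The parathyroid hormone receptor gene Pth1r averaged 254 ± 119 CPM, Adora2a, an adenosine receptor, 137 ± 78.7, and Calcrl, the CGRP receptor core that endothelial cells share, 163 ± 64.5 against 119 ± 39.0 in endothelial nuclei. Adra1a, an adrenergic receptor gene, had 12 UMIs. Drd1, a dopamine receptor, had 7 UMIs, beside a spiny neuron list summing to 2640 ± 1518 CPM in these nuclei and 1370 ± 530 in oligodendrocyte nuclei.

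In the Notch list, Notch3 is a rule gene. Heyl, a Notch target, averaged 263 ± 113 CPM in high-marker, 155 ± 88.4 in low-marker and 153 ± 40.3 in astrocyte nuclei, with 0 UMIs in endothelial nuclei. Maml3, a coactivator, was at 788 ± 259 CPM against 109 ± 74.3 in endothelial nuclei, while Maml2 overlapped, at 1191 ± 464 against 1356 ± 696. Of the ligands, Dll4 had 0 UMIs in high-marker nuclei and 14 in endothelial nuclei, and Jag1 overlapped, at 63.2 ± 40.7 and 65.5 ± 27.1 CPM. The ligand Pdgfb, whose receptor gene Pdgfrb chose the members, was at 115 ± 55.0 CPM in endothelial nuclei and had 2 UMIs in high-marker nuclei. The sphingosine receptor S1pr3 had 17 UMIs in high-marker and 0 in endothelial nuclei, and S1pr1 was lower in all 6 libraries, at 19.7 ± 22.7 against 94.3 ± 40.5 CPM. Tgfbr2 overlapped (195 ± 138 against 212 ± 99.7 CPM), and Eng and Bmpr2 were below endothelial nuclei in all 6 libraries.

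Basement membrane genes differed by chain between both vascular classes. Lama2, a laminin chain, ranged from 792 to 1517 CPM with 1 UMI in endothelial nuclei, and Nid1 (nidogen) at 550 ± 223 against 6.38 ± 9.91. Lamc3 stood at 459 ± 276 CPM with 1 UMI in endothelial nuclei. Type IV collagen genes differed by chain: Col4a4 was higher in all 6 libraries (666 ± 264 against 70.1 ± 49.0 CPM), Col4a3 overlapped (438 ± 98.6 against 356 ± 166), and Col4a1 (198 ± 91.0 against 424 ± 241) and Col4a5 (2 UMIs against 110) were lower. Fibronectin, Fn1, had 4 UMIs against 103. In all, 9 of 29 list genes were higher and 3 lower in all 6 libraries, beside 8.46% and 9.82% of all genes, so the number lower was near the background.

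Among transporters and genes of familial brain calcification, Slc6a13, a GABA and taurine transporter, was at 431 ± 167 CPM with 0 UMIs in endothelial and astrocyte nuclei. It is also on the vascular fibroblast list. Slc20a2, a phosphate importer of the calcification genes, was higher than in endothelial nuclei in all 6 libraries (99.6 ± 47.4 against 29.1 ± 41.2 CPM), and Xpr1, the phosphate exporter, overlapped. Slc2a1 and Atp10a, the glucose transporter and a flippase of the endothelium, had 3 and 10 UMIs against 258 and 329.

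Naloxone acts on opioid receptors. Oprm1, the μ-opioid receptor gene, had a UMI in 3 of the 125 high-marker nuclei (2.40%, 0.498% to 6.85%, median depth 1103 UMIs) and in 2.31% of oligodendrocyte nuclei (median depth 1800), which is read as background. After thinning to 500 UMIs the shares were 0.80% (0.020% to 4.38%) and 0.537%. Before thinning, 6 of the 90 low-marker nuclei (6.67%) had an Oprm1 UMI. In high-marker nuclei, 5 of the 8 Oprm1 UMIs were in 1 nucleus of saline replicate 2. These 125 nuclei are too few and too shallow to tell a low Oprm1 level from background. Oprd1 and Oprk1 had 0 UMIs. The precursor gene Penk, which spiny neurons express, had 31 UMIs in high-marker nuclei.

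The share of nuclei taken by the rule overlapped between the groups. It was 0.342%, 0.344% and 0.430% in saline replicates 1 to 3 and 0.392%, 0.264% and 0.329% in naloxone replicates 4 to 6. The means were 0.372 ± 0.050% and 0.328 ± 0.064%, a difference of -0.044 percentage points (exact two-sided permutation test, p = 0.4, adjusted p = 0.8 over 4 comparisons; 3 against 3 libraries cannot go below 0.1). High-marker nuclei made up 0.201 ± 0.044% and 0.198 ± 0.071% (exact p = 1.0). Median depth per rule nucleus was 1679 ± 450 and 1661 ± 541 UMIs (exact p = 1.0). Thinning each nucleus to 2000 UMIs before the rule left out nuclei below that depth and kept 47465. The median high-marker nucleus, at 1103 UMIs, is below that depth and the median low-marker nucleus, at 3139, above it, so the set is another one. Of it 48 met the rule, and their share did not overlap between groups, at 0.119 ± 0.034% and 0.0755 ± 0.0127% (exact p = 0.1, the smallest this design allows). How many of the 48 carry astrocyte markers was not counted, so their share is not read as one of mural cells. A share of nuclei reflects recovery as well as the tissue, and these cannot be told apart.

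**Figure D4:**
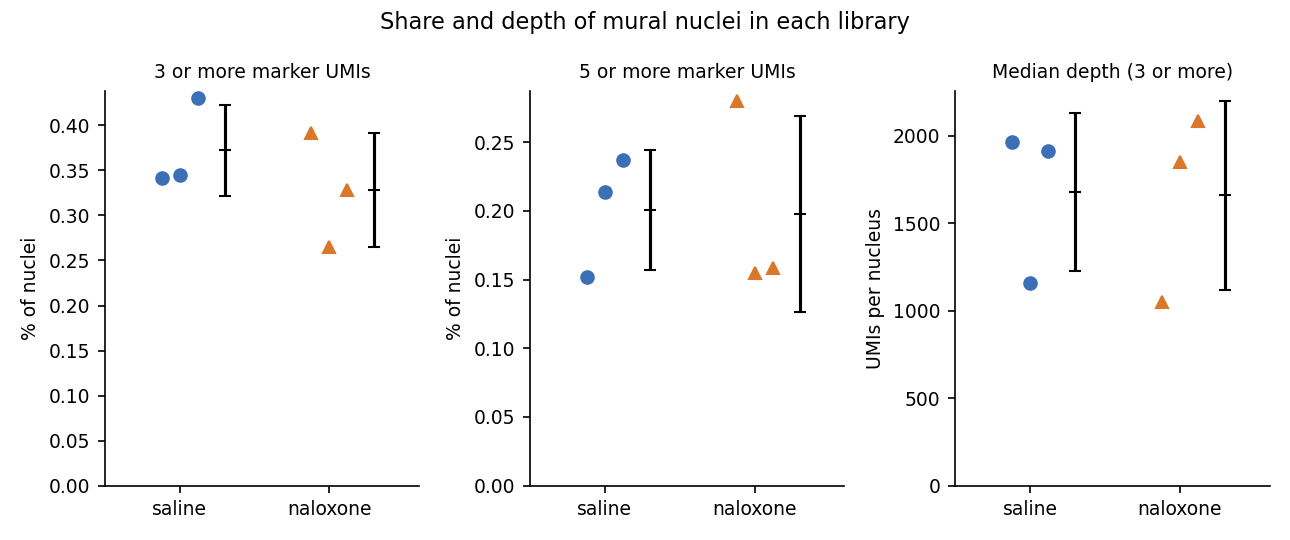
Percent of nuclei taken by the rule (left), percent with 5 or more marker UMIs (middle) and median UMIs per rule nucleus (right) in each library; the black bars are the mean and SD of 3 libraries. Saline and naloxone libraries overlap in all 3 panels.

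No gene passed the test of naloxone against saline in rule nuclei summed per library: 0 of 1819 genes (0.0%) had an adjusted p under 0.05 by edgeR's quasi-likelihood test, 59 (3.24%) had an unadjusted p under 0.05, and DESeq2 called 0. In high-marker nuclei 0 of 624 genes (0.0%) passed and 25 (4.01%) had an unadjusted p under 0.05, and DESeq2 called 0. In endothelial nuclei 0 of 1068 passed (0.0%), with 27 (2.53%) unadjusted and 0 by DESeq2. The class by treatment term, mural against endothelial, passed for 0 of 2509 genes with rule nuclei (0.0%; 55 unadjusted, 2.19%) and 0 of 1158 with high-marker nuclei (0.0%; 25 unadjusted, 2.16%), and DESeq2 called 0 in both. Over all nuclei the same test called 14 of 17443 genes (0.0803%). In simulated data with these library sizes, 200 genes in rule nuclei and 156 in high-marker nuclei were changed at once. A change of 2 on the log2 scale was recovered for 78.5% and 57.7% of them, with 7 and 3 false calls. A change of 1 was recovered for 3% and 0%, with 3 and 0 false calls. With many genes changed the adjusted threshold is easier to pass, so these shares do not apply to a few changed genes.

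Genes furthest apart are given as values, since none passed. In rule nuclei Cdh18, an adhesion gene, was at 151, 257 and 384 CPM in saline replicates 1 to 3 and 24.7, 15.3 and 27.1 in naloxone replicates 4 to 6, a log2 difference of -3.48 ± 0.53 (SE; edgeR adjusted p = 0.179). Without the filter on low counts its edgeR adjusted p was 1.05e-06. The groups did not overlap, as for 162 of the 1819 genes (8.91%), 75 higher (4.12%) and 87 lower (4.78%) after naloxone. Of its 85 UMIs in 26 nuclei, 16 were in 1 nucleus of saline replicate 3, and only 9 were in high-marker nuclei. Rit2, a neuronal GTPase gene, had 30.2, 74.9 and 58.5 CPM in saline and 247, 199 and 190 in naloxone libraries (log2 1.90 ± 0.41, edgeR adjusted p = 0.987), with 14 of 63 UMIs in 1 nucleus of naloxone replicate 4. The other genes chosen by the same rule had log2 values from -1.15 to 1.64, among them Zfp91, Gsg1l and Csnk2a2 on the lower side and Pced1b, Chgb and Fth1 on the higher. High-marker nuclei held 17 of 58 Zfp91 UMIs, 3 of 65 for Gsg1l and 35 of 69 for Csnk2a2. For Pced1b, Chgb and Fth1 they held 37 of 55, 47 of 70 and 35 of 62. Low-marker nuclei held from 33626 of 65196 member UMIs (naloxone replicate 5) to 49195 of 66323 (saline replicate 1). The part of this mix in the differences was not tested.

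Pnn, P4ha1 and the unnamed gene ENSRNOG00000062930 were picked in both sets of nuclei, which share the 125. ENSRNOG00000062930 differed by -1.12 ± 0.40 in rule nuclei and -1.69 ± 0.48 in high-marker nuclei on the log2 scale (edgeR adjusted p = 0.987 and 0.975). Pnn, a splicing-associated protein gene, was in high-marker nuclei at 175, 173 and 282 CPM in saline and 497, 570 and 410 in naloxone libraries (log2 1.25 ± 0.36, edgeR adjusted p = 0.975). P4ha1, a collagen prolyl hydroxylase of the hypoxia list, was at 642, 322 and 508 CPM in saline and 276, 253 and 82.0 in naloxone libraries (log2 -1.07 ± 0.46, edgeR adjusted p = 0.975). In each of the 3 the groups did not overlap, which held for 63 of the 624 genes (10.1%), 27 higher (4.33%) and 36 lower (5.77%). Apoe, the apolipoprotein that astrocytes also express, was at 409, 371 and 508 against 939, 1014 and 820 CPM (log2 1.16 ± 0.35), with 17 of 126 UMIs in 1 nucleus of naloxone replicate 5. The astrocyte list in these nuclei ran from 467 to 5555 CPM in saline and from 729 to 10825 in naloxone libraries, and its part in the Apoe values was not tested. Ptprt, a receptor phosphatase gene, went from 0 to 173 CPM in saline and from 443 to 492 in naloxone libraries, with 52 UMIs in 13 nuclei.

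**Figure D5:**
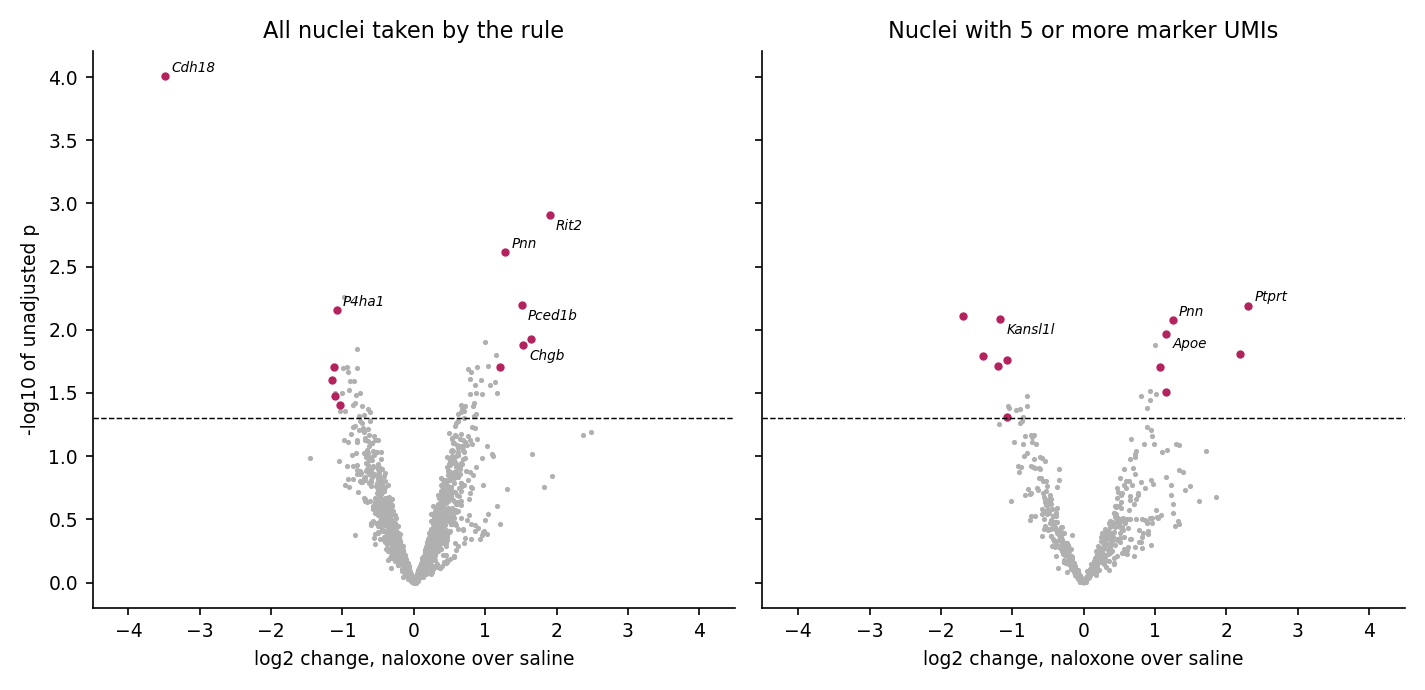
Log2 change of naloxone over saline (horizontal) against -log10 of the unadjusted p (vertical) for 1819 genes in rule nuclei (left) and 624 in high-marker nuclei (right); coloured points are the genes picked by size, with some named, and the dashed line is an unadjusted p of 0.05. Cdh18 stands apart on the left, and no gene passed the adjustment in either panel.

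No gene of the mural lists passed either. In high-marker nuclei the medians were -0.16 for 11 nitric oxide and cyclic nucleotide genes, 0.22 for 12 contraction and calcium genes and -0.11 for 12 basement membrane genes, beside 0.03 over all 624. Smaller lists stood at -0.57 for 3 Notch genes, -0.24 for 2 vasoactive receptors and -0.22 for 5 pericyte markers. Ion channels were at -0.20 for 7 genes, transporters at -0.16 for 6 and smooth muscle markers at 0.02 for 3. The Notch, channel and transporter lists include rule genes. Ebf1 differed by -0.22 ± 0.31, Prkg1 by -0.16 ± 0.19 and Ednra by -0.13 ± 0.29 on the log2 scale. Cacna1c was at 3270, 3339 and 2876 CPM in saline and 2238, 2312 and 2501 in naloxone libraries, without overlap (log2 -0.37 ± 0.25, edgeR adjusted p = 0.975). Rock2, a related kinase gene, was at 234, 223 and 367 against 497, 380 and 697 CPM (log2 0.93 ± 0.35). In rule nuclei the corresponding Cacna1c values overlapped, with a log2 difference of 0.07 ± 0.34. Cacna1c and Rock2 were singled out after their values were seen.

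Zbtb16, Nr3c2 and the immediate early genes belong to lists of stress hormone and activity responses, and the first was picked after its values were seen. Zbtb16, a glucocorticoid-induced gene, was in rule nuclei at 121, 214 and 276 CPM in saline and 272, 644 and 393 in naloxone libraries, which overlap (log2 1.07 ± 0.41, edgeR adjusted p = 0.987). Of its 154 UMIs there, 89 were in high-marker nuclei. Among the 6 glucocorticoid response genes tested in rule nuclei it was the only 1 above 0. The median log2 change of the 6 was -0.11, beside 0.01 over all 1819 genes. Nr3c2, the mineralocorticoid receptor, was in high-marker nuclei at 765 ± 214 CPM in saline and 265 ± 161 in naloxone libraries, without overlap (log2 -1.41 ± 0.46, edgeR adjusted p = 0.975). In rule nuclei its groups overlapped, at -0.31 ± 0.31. Immediate early genes summed to between 56.4 and 223 CPM in saline and between 123 and 253 in naloxone high-marker nuclei, and none of the 26 was abundant enough to be tested.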

How the data were processed

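Nuclei of 6 libraries were measured by droplet-based sequencing. The deposited values are raw UMI counts per gene and barcode. Per the submitters' processing notes the authors used Cell Ranger 9.0.1, Seurat 5.2.1 and R 4.4.0 with build mRatBN7.2, while the annotation and the counting of introns are not given in the sources used here. The labels state 44592 nuclei, and the files hold 64260 barcodes and 25629 genes. Members and lists were chosen with earlier results of these data known, and 10 of 435 list genes were not matched. Presenting nuclei with 5 or more marker UMIs in parallel, the other class rules (2 or more UMIs of Aqp4, of Mog and Opalin, 3 or more of 4 endothelial genes), the 30 leading genes, the 50 CPM minimum and the motifs were chosen after results were seen.

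UMIs were summed per library and tested with edgeR 4.0.16 (quasi-likelihood, TMM, filterByExpr, Benjamini-Hochberg, threshold 0.05), in R 4.3.3. DESeq2 1.42.0, RLE factors, no filter and leaving out each library were alternatives. The class by treatment fit had library as a block. The fits were tested on simulated data. Shares were compared by exact permutation with scipy 1.17.1. Doublets were scored with Scrublet in scanpy 1.11.5. An assumed rate of 0.4% per 1000 nuclei set how many top-scoring nuclei of each library were labelled doublets. These were 2649 nuclei (4.30%), so this share is not a measured rate. Of the 215 members 2 were labelled, and they were kept. Exact binomial intervals cover counting error only. Genes named for naloxone were the 6 largest differences in each direction at an unadjusted p under 0.05, a mean of 50 CPM and groups without overlap. Some genes on the lists are not reported here.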

Additional observations from a re-analysis of the deposited data

Results flagged for a closer look

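Outside the limits on other classes, 106 nuclei held 5 or more UMIs of the 5 mural markers, a signal in nuclei that the rule leaves out of the members. They are counted above only among all nuclei and among the nuclei outside the rule. Of these, 96 (90.6%) had an Ebf1 UMI, their median depth was 3551 UMIs and 6 were labelled doublets. With 3 or 4 marker UMIs another 112 nuclei failed the limits, and 24.1% of those had an Ebf1 UMI.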

How the results depend on the processing

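Without a filter on low counts, edgeR called 10 genes in rule nuclei and 12 in endothelial nuclei, where filtered fits called 0. Of the 10, 2 were lower after naloxone, Cdh18 (log2 -3.56, edgeR adjusted p = 1.05e-06, UMIs in 26 nuclei) and Slc25a21 (15 nuclei), and 8 were higher. For each of the 8, the nucleus with the most UMIs was in naloxone replicate 4. That nucleus held 94.9%, 90.9% and 91.7% of the UMIs of Kcnt2, Il1rapl2 and Vwc2l. For ENSRNOG00000070383, Galntl6, Dscam, Rims1 and Nalf1 it held 76.5%, 73.8%, 73.2%, 58.5% and 47.5%. DESeq2, RLE factors, stricter nuclei and each library left out called 0. Over DESeq2, RLE factors and each library left out, 31 entries of a gene in rule or high-marker nuclei were followed. Pnn, P4ha1 and ENSRNOG00000062930 have an entry in both sets. Of 248 pairs of entry and setting, 248 kept direction and side of the threshold, while Cdh18 crossed it without the filter. Most entries were picked for groups without overlap, which leaving out 1 library cannot undo. The kept direction was therefore largely set by that choice and is no measure of robustness. The smooth muscle share difference reversed to -0.879 points at 1 UMI and to -1.15 after thinning to 1000 UMIs. Leaving out 1 library at a time, differences ran from -277 to 287 UMIs in median depth, from -0.0441 to 0.0183 points in the high-marker share, from -0.0756 to -0.0120 in the rule share and from 1.19 to 3.57 in the smooth muscle share. Requiring 5 marker UMIs moved the pericyte sum from 2821 to 7308 CPM and the astrocyte sum from 18313 to 4170. The pericyte sum was 4179 with other classes' markers at 0 and 1427 with 1000 genes. The causes were not tested. No paired analysis was possible because the groups share no replicate number.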
